A study of Mus musculus with 32 samples.

Results

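The effect of 72 h of ethanol vapor on gene expression in the prefrontal cortex of female mice of the Withdrawal Seizure-Resistant (WSR) lines was examined on 7 of the 32 arrays of a larger study, 3 from ethanol-exposed (EtOH) and 4 from air-exposed (Air) mice. The members are the arrays labelled female, WSR, and EtOH or Air, without the array the submitters marked as excluded (EtOH, second selected line, pool 1). WSR mice were bred from a heterogeneous stock for mild withdrawal convulsions, in 2 independently selected lines, WSR-1 and WSR-2, taken here at selected generation 26 as adults. EtOH mice received an ethanol injection of 1.5 g/kg and then inhaled ethanol vapor. Air mice received no ethanol. All of them, Air mice included, received pyrazole at 68.1 mg/kg, which inhibits alcohol dehydrogenase and so slows ethanol clearance. Tissue was taken at 0 h of withdrawal. Each array was hybridised with 33P-labelled cDNA made from the pooled RNA of 2 mice, 2.5 µg each, so an array is a pool and not an animal. Arrays are named by line and pool: EtOH 1-2 is pool 2 of WSR-1. The EtOH group therefore holds both pools of WSR-1 and 1 pool of WSR-2, and the Air group both pools of both lines.

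Ethanol potentiates GABA-A receptors and inhibits NMDA-type glutamate receptors, and the brain adapts to prolonged exposure by shifting the balance between inhibition and excitation. The excess excitation shows when ethanol is withdrawn, as convulsions. The prefrontal cortex, which serves planning and impulse control, is among the regions affected by chronic alcohol exposure, where stress-response genes, chaperones and innate immune genes have been studied. The comparison of EtOH with Air in WSR mice addresses which transcripts are altered in mice that withdraw mildly, at the end of exposure and before withdrawal begins.

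No probe was called. Of 3872 cDNA probes tested with limma, 0 (0%) passed a Benjamini-Hochberg adjusted p of 0.05, and the smallest adjusted p was 0.858. At an unadjusted p under 0.05 there were 164 probes (4.24%), 101 higher and 63 lower with EtOH. The median standard error of the EtOH minus Air difference was 0.55 on the log2 scale, and the median absolute difference was 0.48. The transcript of Rhoc, a small GTPase that organises the actin cytoskeleton, was higher on all 3 EtOH arrays on both scales used here. It did not pass the adjusted threshold.

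The arrays were dim and noisy. Their background readings ran from 555 to 769 on the EtOH arrays and from 430 to 721 on the Air arrays. All Air arrays but Air 1-2 read below every EtOH array. Ratios of Signal to Background divide by these readings, and their part in EtOH minus Air differences of such ratios was not tested. Readings ran from 8.25 to 22.1 in male WSR mice and from 10.3 to 283 in females of the seizure-prone lines (WSP). Spots above 2 times background made up 5.93% to 11.5% of the cDNA probes. Pairwise correlations among the 7 arrays ran from 0.556 to 0.817. For 371 probes, called bright here, Signal averaged at least 2 times Background over both groups. All 371 were above background on every array, and 56 of them carry a title that names a gene. Among bright probes the array EtOH 1-1 stood apart, with a mean correlation of 0.689 to the other 6, against 0.828 to 0.867 for the rest. The tissue check was limited: both neuron markers on the array, Syn1 and Thy1, were above background on 0 of 7 arrays, while NP25, titled a neuronal protein, and chromogranin B, a protein of secretory granules, were bright (both named after their values were seen). Of 4 choroid plexus probes 2 were bright, Ttr and Enpp2, and of 3 vessel and blood probes 1, a clone of Hba-a1. Microglial markers were not analysed here.

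Differences between EtOH and Air followed the position of the spot on the membrane. The 16 grids explained 38.9% of the variance of the difference over the 3872 tested probes, and grid with column 73.9%. The median difference ran from -0.94 in field 2 grid b to 0.75 in field 2 grid e. Of the 101 probes that were higher at an unadjusted p under 0.05, 42 lay in field 2 grid e, 36 in field 2 grid f and 14 in field 1 grid e. Of the 63 lower ones, 27 lay in field 2 grid b, 17 in field 1 grid a and 10 in field 2 grid c. The share explained by grid with column was 52.5% in female WSP, 36.2% in male WSR and 31.6% in male WSP.

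**Figure D1:**
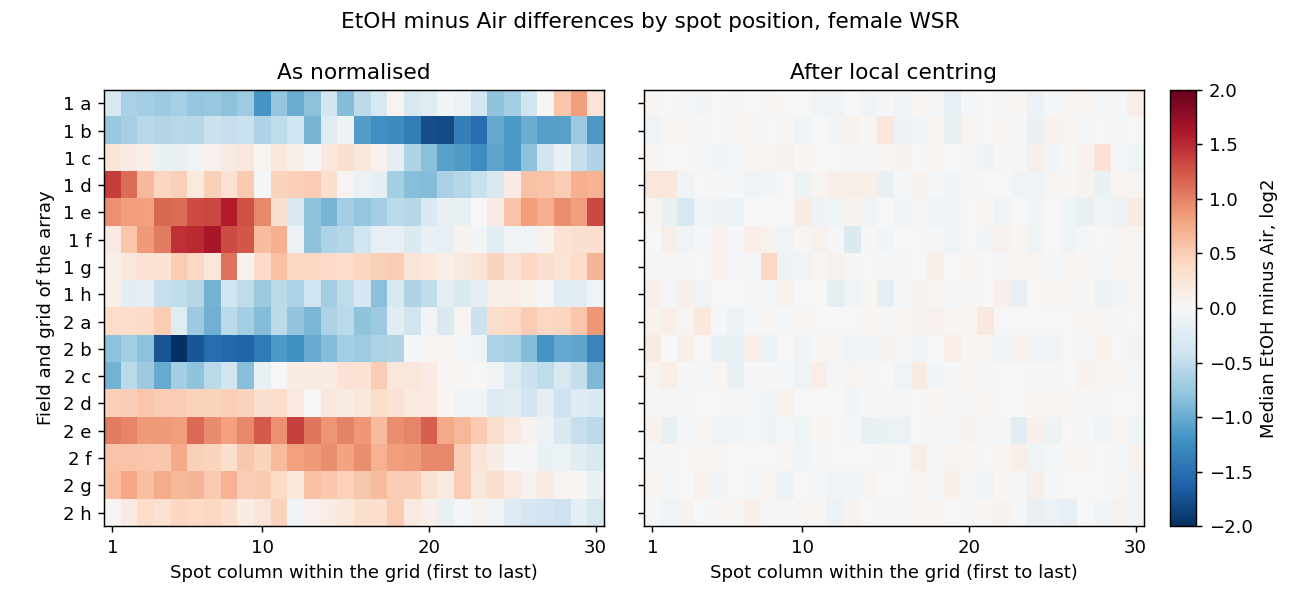
Median EtOH minus Air difference (colour, log2) of the tested probes at each position of the membrane, by field and grid (rows) and spot column (columns), as normalised (left) and after local centring (right). As normalised, field 2 grid b is low and field 2 grids e and f are high, with grid medians from -0.94 to 0.75. After centring these blocks are no longer visible, which the centring itself brings about.

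Each spot was therefore also set against the spots next to it, which hold other cDNAs, in some cases of related genes. On log2(Signal / Background), the EtOH minus Air difference of a spot and that of its adjacent spots correlated at Pearson r = 0.906 across the 3872 tested probes and at 0.480 across the 371 bright probes. These are descriptions across probes of the same 7 arrays, which share membrane position and array background. Of the 164 probes at an unadjusted p under 0.05, the adjacent spots moved the same way in 161, with a median absolute difference of 0.61 in the neighbours and 0.69 in the spots. Many values below are therefore given on 2 scales, and those with no scale named are as normalised. The first is as normalised. The second, called locally centred and added after the data were seen, first subtracts the median Signal of the spots 1 column and 1 row away. Local centring brings a dim spot close to the array median, so it also shrinks the differences of dim transcripts. The median standard error fell to 0.11 on that scale, and correlations among arrays rose to between 0.928 and 0.974, partly by that construction. With locally centred values, 0 of 3872 probes passed limma's adjusted threshold (117 at an unadjusted p under 0.05, smallest adjusted p 0.410).

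**Figure D2:**
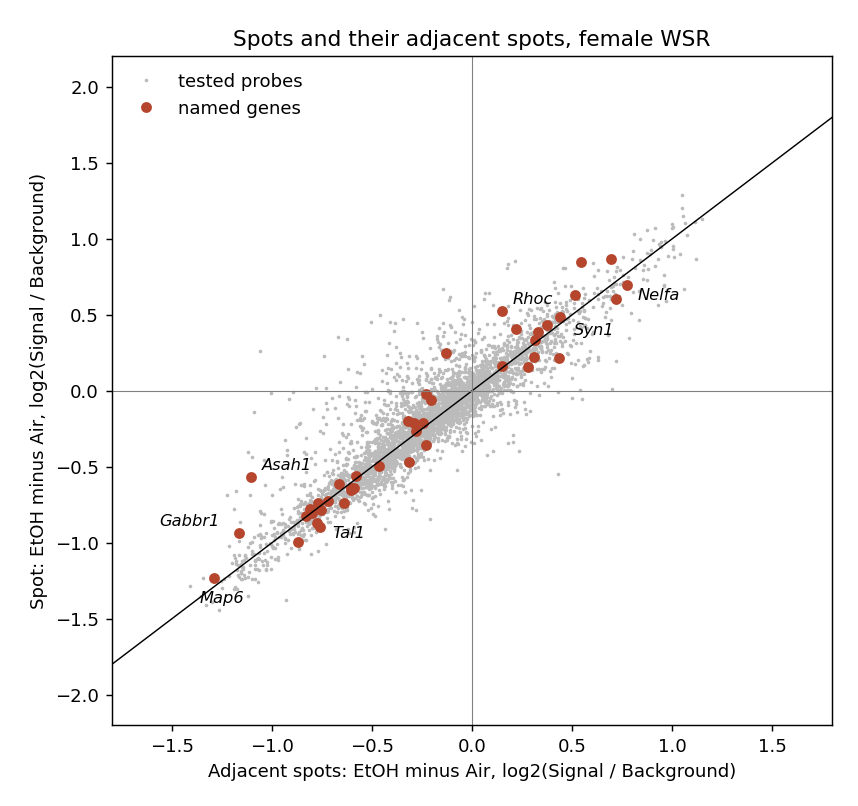
EtOH minus Air difference in log2(Signal / Background) of each spot (vertical axis) against that of its adjacent spots (horizontal axis), for the 3872 tested probes (grey) and the named genes (red), with the line of equality. Most named genes lie along the line, Syn1 at 0.49 against 0.44 and Map6 at -1.23 against -1.29, whereas Rhoc (0.53 against 0.15) and Asah1 (-0.57 against -1.10) lie off it.

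Groups that do not overlap were counted next. As normalised, all 3 EtOH arrays lay above all 4 Air arrays for 187 of 3872 probes (4.83%) and below them for 93 (2.4%). Among the 371 bright probes the counts were 10 (2.7%) and 11 (2.96%). With locally centred values they were 122 of 3872 (3.15%) and 101 (2.61%). Of the 280 probes without overlap as normalised, 24 kept it after local centring (8.57%), 10 higher and 14 lower with EtOH. The bright probes kept it more often, 5 of the 10 higher and 6 of the 11 lower ones. Among bright probes, 316 of 371 had the same sign on both scales.

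Among the 56 bright gene-titled transcripts, 4 had no overlap as normalised, all higher with EtOH: Rhoc, Rbx1, Fjx1 and Ufd1. Over all 371 bright probes, 10 (2.7%) were higher and 11 (2.96%) lower without overlap, so no direction is read from the 4. As normalised, no bright gene-titled transcript lay lower on all 3 EtOH arrays. Locally centred, 1 did, titled testis fascin (Fscn3), at -0.27 ± 0.084 (limma unadjusted p = 0.0150, adjusted p = 0.870). It overlapped as normalised and is named after its values were seen.

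Rhoc measured 8.27, 9.18 and 8.39 on EtOH arrays 1-1, 1-2 and 2-2, as log2 normalised intensity, and 7.27, 8.26, 6.57 and 7.25 on Air arrays 1-1, 1-2, 2-1 and 2-2. The lowest EtOH value lay just above the highest Air value, that of Air 1-2, and the other 3 Air arrays lay at or below 7.27. The difference was 1.28 ± 0.49 (SE, n = 3 and 4; limma unadjusted p = 0.0323, adjusted p = 0.858). Locally centred, the EtOH arrays measured 8.71, 8.69 and 8.73 and the Air arrays 8.16, 8.29, 8.22 and 8.29. The 2 groups then lay clearly apart, each within a narrow range. The difference was 0.47 ± 0.06 (limma unadjusted p = 1.06e-04, the smallest of all 3872 probes, adjusted p = 0.410), with a window chosen with this p in view. On log2(Signal / Background) the Rhoc spot differed by 0.53 and its neighbours by 0.15. Leaving out each array in turn kept the locally centred difference between 0.45 and 0.49, and the other windows tried for centring gave 0.50 to 1.08. The locally centred difference was 0.48 in WSR-1 and 0.48 in WSR-2, the second of which rests on 1 EtOH array.

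Rbx1, the RING subunit of cullin ubiquitin ligases, measured 9.71, 9.21 and 9.12 on the EtOH arrays and 8.66, 9.02, 8.21 and 8.71 on the Air arrays. Its difference of 0.70 ± 0.38 (limma unadjusted p = 0.101) became 0.28 ± 0.15 when locally centred, where the groups overlapped. Fjx1, a secreted glycoprotein related to a Drosophila wing and leg patterning protein, differed by 0.46 ± 0.40 as normalised and by 0.0048 ± 0.070 when locally centred. Ufd1, an adaptor of the p97 ATPase in protein degradation, differed by 0.16 ± 0.32 and 0.12 ± 0.083. All of the last 3 spots lie in field 2 grid f, where the median difference was 0.48 over all tested probes and 0.18 over the bright ones. Rhoc lies in field 1 grid g, where these medians were 0.31 and 0.13.

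**Figure D3:**
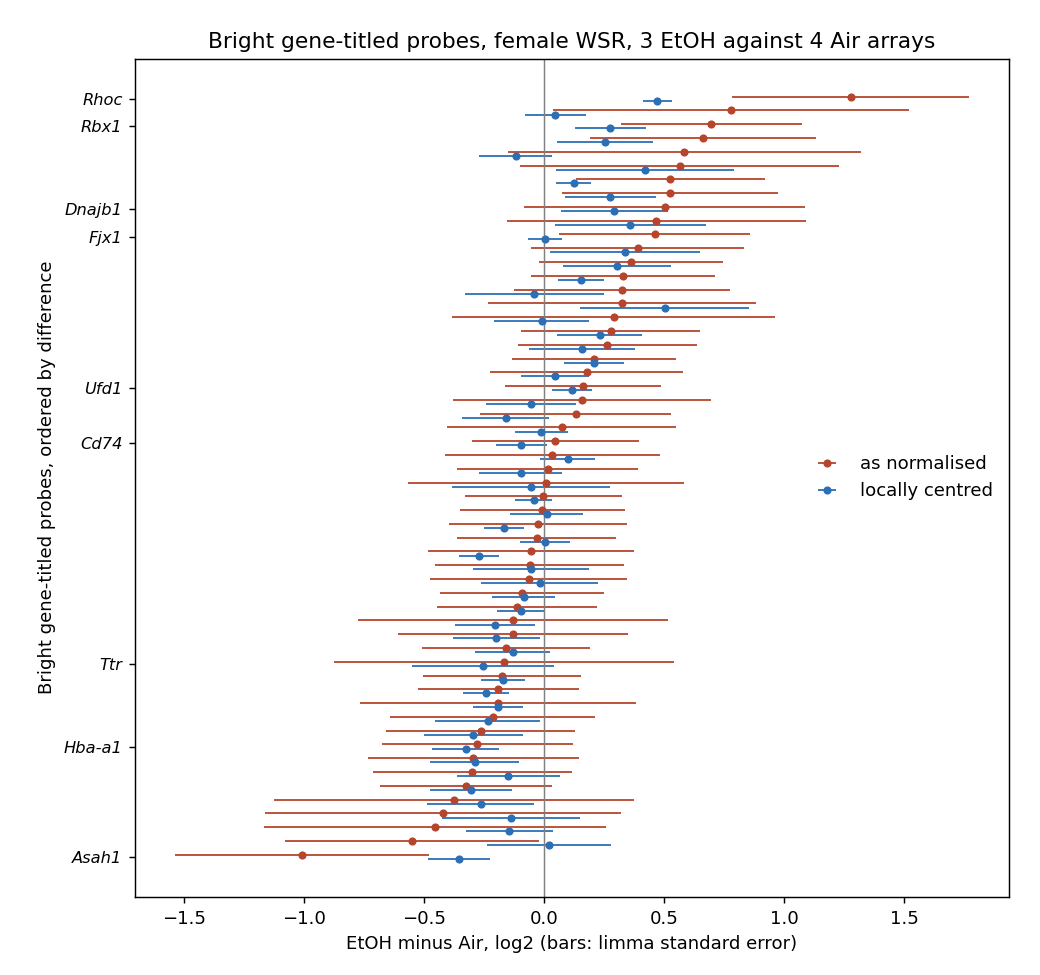
EtOH minus Air difference (log2) with limma's standard error for the 56 bright gene-titled probes, ordered by the difference as normalised (red), with locally centred values beside them (blue). Rhoc has the highest value as normalised, 1.28, and Asah1 the lowest, -1.01. Standard errors are smaller after local centring.

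Asah1, the lysosomal acid ceramidase, had the most negative difference among the bright gene-titled transcripts. It measured 7.31, 7.82 and 7.13 on the EtOH arrays and 8.33, 8.64, 7.35 and 9.40 on the Air arrays. Air 2-1 lay among the EtOH arrays, and the difference was -1.01 ± 0.53 (limma unadjusted p = 0.0926). Locally centred it was -0.35 ± 0.13 (unadjusted p = 0.0281, adjusted p = 0.870), and the groups overlapped narrowly, with EtOH 2-2 (8.58) just above Air 1-2 (8.55). The spots beside Asah1 differed more than the spot itself, -1.10 against -0.57 on log2(Signal / Background).

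The gene-titled transcripts named here for their small unadjusted p as normalised were all dim, and none of these had an unadjusted p under 0.05 when locally centred. Syn1, a synaptic vesicle phosphoprotein of neurons, measured 5.0, 4.76 and 4.61 with EtOH and 3.25, 3.05, 3.44 and 3.57 with Air. The groups were more than 1 apart, but none of the 7 values was above background. Its difference of 1.46 ± 0.35 (limma unadjusted p = 0.00296) became 0.024 ± 0.073 when locally centred, and its adjacent spots differed by 0.44, the spot itself by 0.49. The same was measured for the others. As normalised, Nelfa of the transcription elongation inhibitor NELF differed by 1.45 ± 0.47, Mab21l2 by 1.27 ± 0.46 and the ligand Efnb1, which signals through Eph receptors, by 1.23 ± 0.44. When locally centred these became -0.086, 0.23 and -0.20. The blood stem cell transcription factor Tal1 differed by -1.44 ± 0.45, the homeobox gene Hoxd10 by -1.41 ± 0.50 and the calcium release channel Itpr1 by -1.24 ± 0.41. The brain glycogen synthase 3 transcript differed by -1.20 ± 0.45 and Rab1, a GTPase of transport to the Golgi, by -1.11 ± 0.40. When locally centred these became 0.0063, -0.090, 0.0031, -0.052 and 0.048. Adjacent spots of the 8 genes differed in the direction of the spot by 0.51 to 0.77 for the 3 higher ones and by -0.83 to -0.76 for the 5 lower ones.

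**Figure D4:**
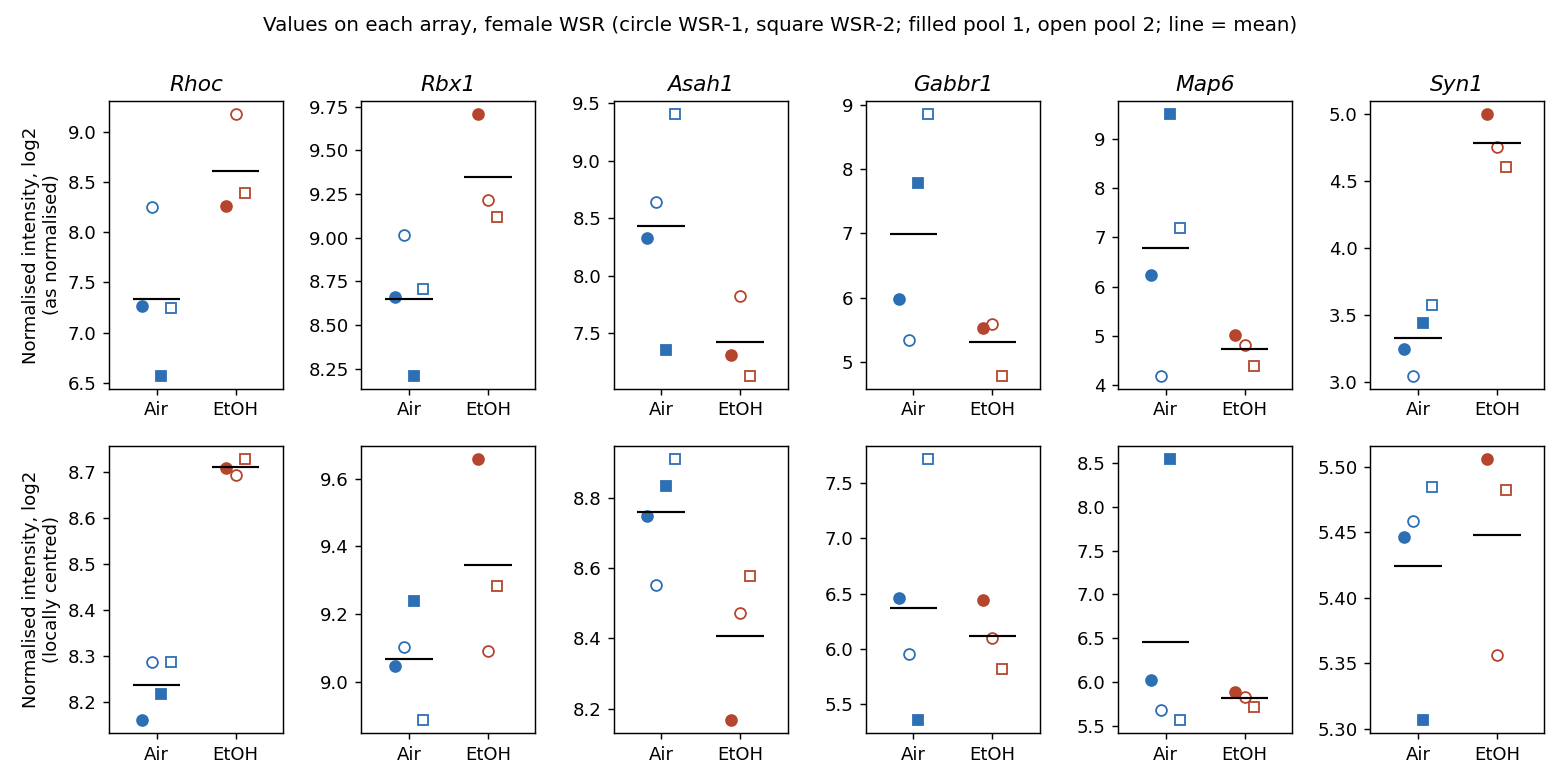
Log2 normalised intensity of 6 named transcripts on each array (circles WSR-1, squares WSR-2, filled pool 1, open pool 2, lines group means), as normalised (top) and locally centred (bottom), with separate vertical scales. Rhoc is higher on the 3 EtOH arrays on both scales. For Rbx1 and Syn1 the groups overlap after centring.

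Across the lists of genes by role, 0 members were called in any list, against 0% of all tested probes. Over all tested probes the median difference was 0.046 as normalised and 7.7e-04 when locally centred. No list is called apart from the other probes here.

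For inhibitory and excitatory signalling, all 3 GABA signalling members had negative values, with a median of -0.96 as normalised and -0.20 when locally centred. Gabbr1, a subunit of the GABA-B receptor, measured 5.53, 5.60 and 4.79 with EtOH and 5.98, 5.34, 7.78 and 8.85 with Air. Both WSR-2 Air arrays were high and both WSR-1 Air arrays lay near the EtOH arrays. The difference was -1.68 ± 0.84 (limma unadjusted p = 0.0802). As no EtOH array was above background, the fold between the group means is given as at least 2.92. That figure leaves out the spread of the arrays and is not a lower limit on an effect. The difference was -0.092 in WSR-1 and -3.53 in WSR-2, which rests on EtOH 2-2 alone. Its adjacent spots read 2.47 and 2.65 times background on Air 2-1 and 2-2 and 0.508 to 0.931 times on the other 5 arrays. The locally centred difference was -0.25 ± 0.52 with the window used here, and ran from -0.20 to -1.83 over the windows tried. The neuropeptide gene Sst differed by -0.96 ± 0.57 and the vesicular GABA transporter Slc32a1 by -0.55 ± 0.49, and when locally centred by -0.20 and -0.013. Of 5 tested glutamate signalling members, 3 had positive values (median 0.16, locally centred 0.022). The obligatory NMDA receptor subunit Grin1 differed by 1.34 ± 1.17, and by 0.25 ± 0.22 when locally centred. Its value as normalised ran from 0.041 to 2.47 when single arrays were left out.

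Map6, which stabilises microtubules, lies in the same grid as Gabbr1, field 2 grid c. It read 5.01, 4.81 and 4.37 with EtOH and 6.23, 4.19, 9.50 and 7.19 with Air. The high values were those of Air 2-1 and 2-2, the arrays whose adjacent spots read 2.96 and 2.16 times background there. Map6 differed by -2.05 ± 1.09, and by -0.64 ± 0.71 when locally centred (-0.64 to -2.14 over the windows tried). In the interferon and antigen presentation list, 4 of 8 tested members were negative (median -0.25, locally centred 0.018). Its bright member Cd74, the invariant chain of MHC class II, differed by 0.048 ± 0.35. Of 4 tested microtubule genes 3 were negative (median -1.03, locally centred -0.025), with the tubulin Tubb5 at -1.18 ± 0.56 and 0.025 when locally centred. Another tubulin probe is among the spots adjacent to Tubb5.

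In the innate immune list, 3 of 4 tested members were negative (median -0.39, locally centred -0.052). Rela, the p65 subunit of NF-kB, measured 5.23, 5.77 and 5.27 with EtOH and 5.76, 8.23, 6.19 and 6.24 with Air. Air 1-2 was the highest, and Air 1-1 lay just under EtOH 1-2. The difference was -1.18 ± 0.62 (limma unadjusted p = 0.0922) and -0.47 ± 0.24 when locally centred (-0.47 to -1.65 over the windows tried), with adjacent spots at -0.58 and the spot at -0.56 on log2(Signal / Background).

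Immediate early genes, which neuronal activity induces within minutes, had 5 of 7 tested members with negative values (median -0.48, locally centred -0.16). Egr1 differed by -1.503 ± 1.27 and Fosl2 by -1.04 ± 0.75, and when locally centred by -0.33 and -0.24. Egr1 measured 8.79 and 6.91 on Air 1-1 and 2-1 and 2.94 to 4.28 on the other 5 arrays, so that 2 of 4 Air arrays carried its difference.

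Among stress genes, heat shock proteins and chaperones were evenly split (3 of 6 positive, median -0.014, locally centred 0.044). Dnajb1, a bright HSP40 co-chaperone, differed by 0.50 ± 0.59 and 0.29 ± 0.22, and its EtOH and Air values overlapped on both scales. With single arrays left out, its value as normalised ran from 0.021 to 1.01. The chaperonin subunit Tcp1 differed by 1.67 ± 1.12 (0.29 to 2.77 with single arrays left out), and by -0.13 when locally centred. In the integrated stress response list, 2 of 3 tested members were positive (median 0.35, locally centred 0.016). Ppp1r15a, which directs dephosphorylation of eIF2alpha, differed by -1.21 ± 0.52 (limma unadjusted p = 0.0477) and the eIF2alpha kinase Eif2ak3 by 1.13 ± 0.79, and when locally centred by 0.016 and -0.099. The glucocorticoid-induced Tsc22d3 differed by -0.84 ± 0.50, and by 0.089 when locally centred. None of the 4 oxidative stress defence genes passed the dim filter.

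Oxidative phosphorylation was measured by 6 probes, 3 positive and 3 negative (median -0.20, locally centred -0.047). The 2 clones of Ndufv1, a subunit of complex I, went opposite ways, 1.00 ± 0.45 in field 2 grid e and -1.01 ± 0.47 in field 2 grid b, and came to 0.067 and 0.046 when locally centred. Ndufs4, another complex I subunit, differed by 0.73 ± 0.40 and -0.064. Of 6 tested ribosomal protein genes, 4 were negative (median -0.66, locally centred -0.030), with Rpl12 at -0.94 ± 0.69. Cyp2e1, which oxidises ethanol in the liver and brain, was the 1 gene of alcohol metabolism measured and differed by 0.42 ± 0.77. Of 9 tested chromatin modifiers, 6 were negative (median -0.23, locally centred 0.052), with the cytoplasmic deacetylase Hdac6 at -1.04 ± 0.71.

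**Figure D5:**
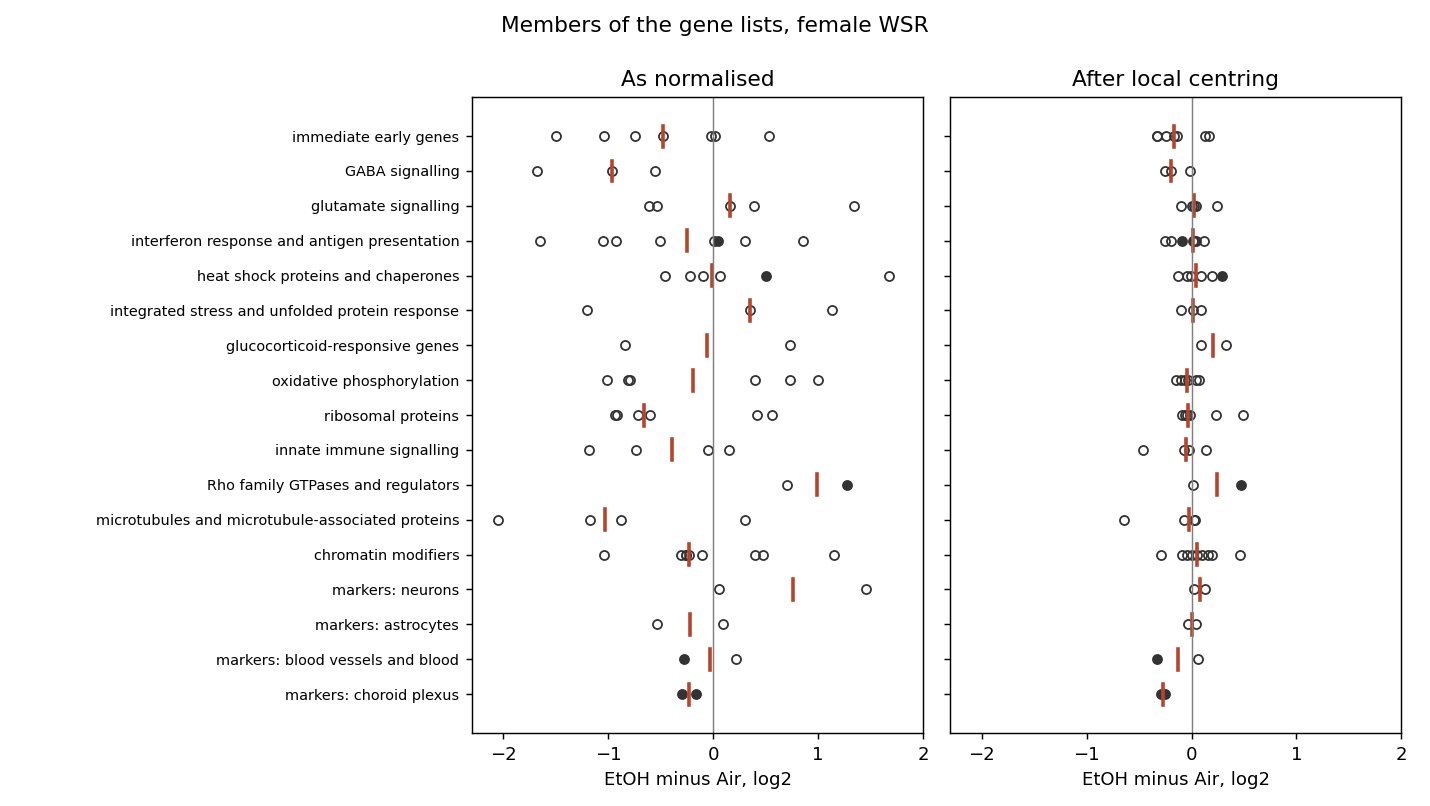
EtOH minus Air difference (log2) of each tested member of the lists with at least 2 tested members (circles, filled where bright) with the list's median (red bar), as normalised (left) and locally centred (right). GABA signalling has a median of -0.96 as normalised and -0.20 after centring.

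Markers of other cell types are given for the lists described here, and none of their members passed the threshold. In these bulk tissue samples, fewer cells of a type and less RNA per cell cannot be told apart. Summed Signal over Background of the 2 neuron markers ran from 1.25 to 1.86 with EtOH and from 1.18 to 1.41 with Air, and for the 2 astrocyte markers from 1.65 to 3.20 and from 2.04 to 3.499. For the 3 vessel and blood markers it ran from 4.38 to 5.74 and from 4.89 to 7.98, and for the 4 choroid plexus markers from 5.69 to 6.52 and from 5.90 to 8.46. The sums divide by background readings that were higher on the EtOH arrays than on the Air arrays other than Air 1-2. Ttr, which carries thyroid hormone and is made by the choroid plexus, differed by -0.17 ± 0.71, and Enpp2, the lysophosphatidic acid producing enzyme autotaxin, by -0.29 ± 0.44. Hba-a1, alpha globin, differed by -0.28 ± 0.40. When locally centred Ttr, Enpp2 and Hba-a1 came to -0.25 ± 0.29, -0.29 ± 0.19 and -0.33 ± 0.14, and the groups overlapped for each. The other clone of Hba-a1 did not pass the dim filter and came to 0.13 when locally centred. Thy1, a surface glycoprotein of neurons, differed by 0.057 ± 0.36 and by 0.13 ± 0.063 when locally centred, where its EtOH values lay above its Air values although none was above background. The astrocyte enzyme Aldoc differed by 0.098 ± 0.69.

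Whether the EtOH response of female WSR mice differed from that of other mice was tested as an interaction. Against male WSR mice (4 EtOH and 4 Air arrays) 0 of 3872 probes (0%) passed limma's adjusted threshold, with 174 at an unadjusted p under 0.05. Against female WSP mice (4 and 4 arrays) 0 of 3872 (0%) passed, with 146. With locally centred values 0 passed in either test, with 181 and 146 at an unadjusted p under 0.05. WSP-2 mice had received a higher ethanol injection than the 1.5 g/kg of the other lines. The background readings differed between these groups, as given above, so the scale of the arrays cannot be told apart from sex or line in these tests.

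The response of Rhoc was 1.28 in female WSR, 0.072 in male WSR and 0.23 in female WSP as normalised. The difference from male WSR was 1.21 ± 0.53 (limma unadjusted p = 0.0371, adjusted p = 0.940). Locally centred, the responses were 0.47, 0.037 and 0.37, and limma gave an unadjusted interaction p of 0.122 against male WSR and 0.714 against female WSP. The mitochondrial outer membrane protein Mtch1 differed by -0.90 in female WSR and 1.51 in male WSR (interaction -2.40 ± 0.69, adjusted p = 0.940), and by -0.20 and 0.22 when locally centred. The Src-like adaptor Sla, a regulator of antigen receptor signalling, measured 9.79, 7.18 and 6.63 with EtOH and 6.36, 6.01, 6.13 and 6.001 with Air in female WSR. EtOH 1-1 stood far above the rest. Its response was 1.74 ± 0.73 in female WSR and -0.24 in male WSR (interaction 1.98 ± 0.66, adjusted p = 0.940), and 0.71 ± 0.47 in female WSR when locally centred. Asah1 responded by -1.01 in female WSR and 0.25 in male WSR (interaction -1.26 ± 0.58, adjusted p = 0.940). Locally centred, its limma interaction was -0.62 against male WSR (unadjusted p = 0.0545, adjusted p = 0.914). Against female WSP the locally centred limma interaction of Asah1 was -0.53 (unadjusted p = 0.0168, adjusted p = 0.903).

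Against female WSP, the smallest p among gene-titled probes was that of Syn1, whose response was 1.46 in female WSR and -0.62 in female WSP (interaction 2.08 ± 0.48, adjusted p = 0.706). The T cell kinase Txk responded by -1.49 and 1.10, the transcript titled pale ear by 1.14 and -1.003, and Tal1 by -1.44 and 0.41. None of these passed the threshold. On the locally centred scale the female WSR responses of Syn1, Txk, pale ear and Tal1 were 0.024, -0.055, 0.072 and 0.0063.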

How the data were processed

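RNA of 7 pools of 2 mice each was hybridised to cDNA membrane arrays. The authors deposited 1 spot intensity per cDNA (Signal, linear) and 1 Background reading per array, per the file headers. The scanner software is not given in the sources used here. A table of the authors' processed values, deposited as log2 expression with its centring not stated, served as an alternative. Arrays were background-corrected with normexp (limma 3.58.1 in R 4.3.3; offset 50 where the median Signal was at least 500, otherwise 0.1 of it), genomic DNA controls were dropped, and 31 arrays were quantile normalised. Probes above the 25th percentile were fitted with limma (EtOH against Air, 7 arrays) with Benjamini-Hochberg adjustment at 0.05, and interactions over 15 arrays with weights by group. Code was tested on simulated data. Pools are the replicates, and their number limits the precision. A fold given as "at least" sets the brighter mean against the higher, per array, of the dim probe and the lowest probe above background.

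Genes were named by a rule: titles naming 1 gene that were called, were bright without overlap, had the 10 smallest p, or led a list or an interaction by p, bright first. Of 71 probes it allows, 44 are named and 27 are not named, and which were named was settled after their values were seen. Some results that the rule would name are not reported here. The members and lists were chosen with earlier results of these data known. Probe titles, which may be old, come from the deposited files and give no genome position.

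Local centring was added after the data were seen. Of 6 windows tried, the smallest was chosen with gene values in view, Rhoc's p included, because correlations among arrays were highest. The lowest correlation fell from 0.928 with this window to 0.672 with the whole grid. Centring raises these correlations partly by construction, so they are no support for the window chosen. Rhoc's p was also smallest with it. At least 3 neighbours were required. Pools were not treated as paired in the main fit, as the labels name no shared batch for pools. The correlations of same-numbered deviations were 0.13, 0.033 and -0.025, against -0.16 to 0.12 for the other pairs. These few values cannot show whether pools were paired, and fits with a replicate block are given below.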

Additional observations from a re-analysis of the deposited data

Results flagged for a closer look

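In 4 measures, 1 Air array lay far from the other 3 by Dixon's criterion for 4 samples. Chance flags about 1 in 20 such groups, and 48 were examined. These were the 44 named probes, none of which was flagged, and 4 array measures, all of which were flagged. Most of the flags are linked readings of the same array, Air 1-2, so they are not independent. The background of Air 1-2 read 721, against 430 to 473 for the other Air arrays. The median Signal of Air 1-2 was 609, against 344 to 355. Its share of spots above 2 times background was 5.93%, against 10.5% to 11.5%. The mean correlation of Air 2-1 with the other 6 arrays was 0.615, against 0.701 to 0.716 for the other Air arrays. As normalised, Rhoc and Rela were highest in Air on Air 1-2. The part of these readings in those differences was not tested.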

How the results depend on the processing

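The count of called probes was 0 under every setting tried but 2, both with all 31 arrays and a common spread. That fit called 9 probes (1 higher, 8 lower, 571 at an unadjusted p under 0.05), none bright or gene-titled, and none of the 9 was called after local centring. With local centring it called 3, none bright. The median standard error of that fit was 0.48 as normalised, and with weights by group it called 0 on either scale. Unadjusted p under 0.05 was reached by 86 to 275 probes when each array was left out in turn (0 called each time). The fits with selection replicate, or selection replicate and pool, as a replicate block called 0 (133 and 215 at an unadjusted p under 0.05), and the interactions with the block 0 (159 and 121). The authors' deposited values covered 616 of the probes, with 0 called in limma (34).

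Of 44 named probes, 29 kept their direction when locally centred, while 15 turned: Tal1 (0.0063), Nelfa (-0.086), Itpr1 (0.0031), Efnb1 (-0.20), Rab1 (0.048), Cd74 (-0.095), Tcp1 (-0.13), Ppp1r15a (0.016), Eif2ak3 (-0.099), Tsc22d3 (0.089), Ndufv1 of grid b (0.046), Ndufs4 (-0.064), Cyp2e1 (-0.023), Tubb5 (0.025) and Aldoc (-0.033). Aldoc also turned with cyclic loess (-0.031), median scaling (-0.065) and quantile over the 7 arrays (-0.017), Cd74 with cyclic loess (-0.035) and the deposited values (-0.030), and Tsc22d3 with the deposited values (1.66). Over single arrays left out, 39 of the 44 differed by more than 1.5 times or in sign between their lowest and highest values. Cd74 ran from -0.077 to 0.12, Cyp2e1 from -0.35 to 0.90, Thy1 from -0.057 to 0.20, Aldoc from -0.69 to 0.50 and Ttr from -0.72 to 0.17. The choice of window moved Rhoc from 0.47 (limma unadjusted p = 1.06e-04) to 1.08 (0.0173). Its largest p, 0.0359, came at 0.77, with 1 column and all rows. Gabbr1 moved from -0.20 (0.709) to -1.83 (0.0143). The causes were not tested.

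With 3 and 4 pools, a median standard error of 0.55 and few probes above 2 times background, small changes could not be resolved, and a probe near background is not shown to be unexpressed or unchanged. Local centring lowers the error of dim probes and their differences together.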
